A study of Oncorhynchus mykiss with 72 samples.

Results

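The features described here are 46 gill transcript features of redband trout (Oncorhynchus mykiss) that were abundant in unheated fish and whose level differed little between heated and unheated fish on every sampling day. They were chosen from the normalised values themselves. A feature qualified as abundant if its median over the 12 control libraries was at least 200 in each of the 3 strains, which 517 of the 23225 features shared by the strains did. The heat effect in a strain on a day was the median log2(value + 0.5) of the 3 libraries at 28 °C minus that of the 3 libraries at 15 °C. Features stayed in the set if this effect was smaller than 0.4 in absolute size in all 12 combinations of strain and day. Of the 517 abundant features, 46 did so (8.90%) and 471 did not. Every heat effect was used in the choice, so heat effects are given below as a description, without a test.

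The fish were Little Jacks, a strain from a desert creek, Keithly, a strain from a montane creek, and the F1 cross of both. Fish of each strain were held at 28 °C or at the control temperature of 15 °C, and gill was taken on days 1, 3, 7 and 28, with 3 libraries in each of the 24 groups. Each library held RNA pooled from 3 samples of a shared rearing tank, so p-values measure the spread between such pools and do not describe single fish. Fish age is not given in the sources used here. For the 28 °C group of the F1 cross on day 1, column names were followed, because the sample descriptions point to the Little Jacks table.

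The gill is the surface across which a fish takes up oxygen and exchanges ions, acids and ammonia with the water, and it meets a change in water temperature directly. Heat above the usual range activates heat shock factor in animal cells, which raises the transcription of chaperone genes, while the transcripts of many other genes fall. Transcripts whose level does not follow a treatment are commonly used as references when the levels of others are compared. A level stated relative to other transcripts depends on how the libraries were scaled. The identifiers of the 46 features are not paired with gene names, and the reference gene table held 0 of 46, so no gene role, sequence or position can be attached to them and they are named by identifier. For the same reason gill cell type markers could not be looked up.

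The libraries held 0.276 to 19.9 M recovered reads (M, mega), the median being 6.43 M, and 3 of them lay under 1 M. No value of the 46 features rested on fewer than 40 reads in any library. In bulk gill RNA, fewer cells of a type and less RNA per cell cannot be told apart. In the first component of the within-group residuals, computed over 16763 features and holding 38.6% of their variance, 7 libraries stood apart from the other 65. They were replicate 1 of Little Jacks at 28 °C on day 1, replicate 3 of Little Jacks at 28 °C on days 7 and 28, replicate 2 of the F1 cross on day 28 at 15 °C and at 28 °C, and in Keithly on day 28 replicate 2 at 15 °C and replicate 3 at 28 °C. The values of these libraries for the 46 features are given below.

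The 46 features were moderately abundant. Their median level over the control libraries had a midpoint of 309 in the desert strain, 312 in the cross and 312 in the montane strain. The lowest lay at 207, 207 and 209.7 and the highest at 4120, 4014 and 4576. The other 471 abundant features had midpoints of 436, 424 and 429.9. Fewer features passed the heat limit among those of higher level. It was passed by 20 of 149 features with a mean level under 300 (13.4%), by 14 of 151 between 300 and 500 (9.27%), by 7 of 122 between 500 and 1000 (5.74%) and by 5 of 95 at 1000 or more (5.26%). All 46 identifiers had the prefix g and 0 were singletons, against 461 and 10 of the other abundant features and 22724 and 501 of all shared features.

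The strains did not contribute equally to the choice. On all 4 days in Little Jacks, 123 of the 517 abundant features were inside the limit (23.8%). In the F1 cross 158 were (30.6%), and in Keithly 189 (36.6%). Being inside it in both parental strains was met by 72 features, in Little Jacks and the F1 cross by 62, and in Keithly and the F1 cross by 114. By day, the number inside the limit in all 3 strains was 234 on day 1, 193 on day 3, 183 on day 7 and 138 on day 28. Day 28 holds most of the libraries that stood apart and most of those under 1 M reads. In Little Jacks the libraries that stood apart are all at 28 °C. The counts by strain and by day were not repeated without these libraries, and their part in the differences was not tested. A further 63 abundant features were outside in a single combination of strain and day, among them 13 in Little Jacks on day 3, and 11 were outside in all 12. Of the 471 features that left the limit, 103 did so upward only, 202 downward only and 166 in both directions.

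Among the 46 features, the 552 heat effects lay on both sides of zero, 262 of them above it, and 372 (67.4%) were within 0.2 of it. None of the 46 features had the same sign in all 12 combinations. A single feature was above zero in at least 10 of them, and 5 were below zero in at least 10. The median effect of the 46 features in Little Jacks was -0.06 on day 1, -0.06 on day 3, -0.12 on day 7 and -0.12 on day 28. The F1 cross had medians of 0.03, 0.07, -0.02 and -0.09, and Keithly had -0.04, 0.13, -0.12 and 0.11. The signs were most uneven in Keithly, where 36 of 46 features were above zero on day 3 and 37 of 46 on day 28, against 15 of 46 on day 7. The other abundant features lay to the same side in Keithly, with medians of 0.08 on day 3, -0.11 on day 7 and 0.08 on day 28. These shifts were thus not particular to the 46 features. The median over all features in Keithly was -0.01 on day 3, -0.01 on day 7 and 0.05 on day 28.

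**Figure D1:**
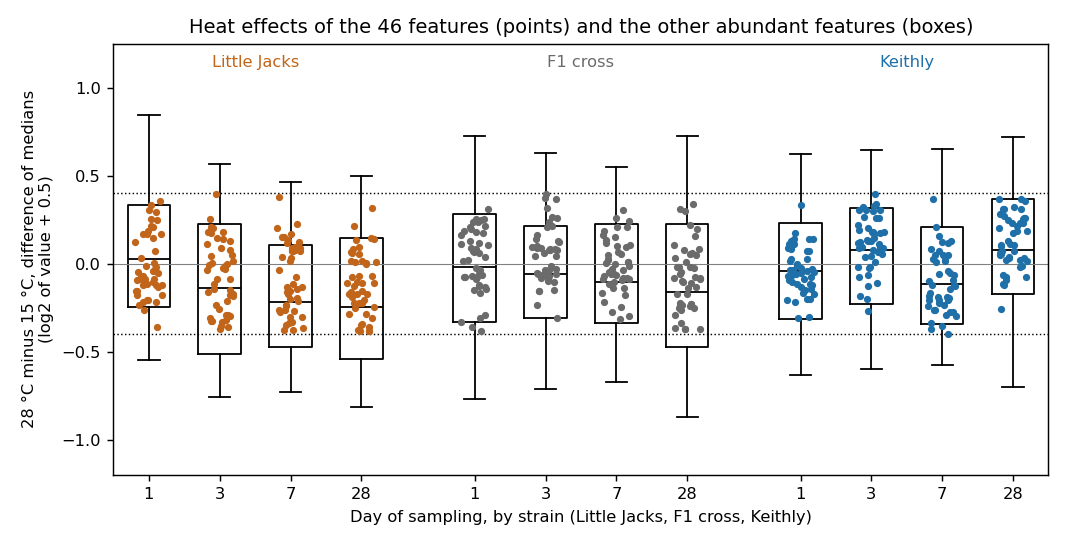
Each point is the heat effect of a feature among the 46 (vertical axis, 28 °C minus 15 °C, difference of medians of log2(value + 0.5)) on the day given on the horizontal axis, with Little Jacks on the left, the F1 cross in the middle and Keithly on the right. Boxes give the quartiles and the 10th and 90th percentiles of the other 471 abundant features, and dotted lines mark the limit of 0.4 that all points were chosen to lie within.

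These effects hold on the scale of the deposited values, which are not divided by the column total. On a scale of column totals the median over all features on day 1 was itself -0.85 for Little Jacks, -0.68 for the F1 cross and -0.72 for Keithly. The median of the 46 features moved with it, to -0.93, -0.66 and -0.80. On that scale 0, 1 and 0 of the 46 features were inside the limit of 0.4 on day 1. On days 3, 7 and 28, 31, 45 and 38 of the 46 were inside it in Little Jacks. The F1 cross had 44 inside it on each of these days, and Keithly had 42, 33 and 40. The rule applied to column-total values kept 4 features, 0 of them among the 46. Their steadiness on day 1 is thus relative to the bulk of the other features and not to the total of reads. That total includes the ribosomal RNA features, which were left out of the choice.

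The same contrast is visible when the 46 features are summed. Their summed value in the 12 Little Jacks libraries at 15 °C had a lowest, median and highest of 23481, 25301 and 28751, and at 28 °C of 14403, 24279.5 and 26636. The F1 cross had 17449.8, 25228 and 26531 at 15 °C and 21355, 24717 and 28464 at 28 °C. Keithly had 21861, 25887 and 28026 at 15 °C and 23369.6, 26212 and 27743 at 28 °C. The ranges overlapped in every strain. As a share of recovered reads, the median at 15 °C was 2.95% for Little Jacks, 2.82% for the F1 cross and 2.95% for Keithly. On day 1 at 28 °C it was 1.76%, 1.72% and 1.69%.

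**Figure D2:**
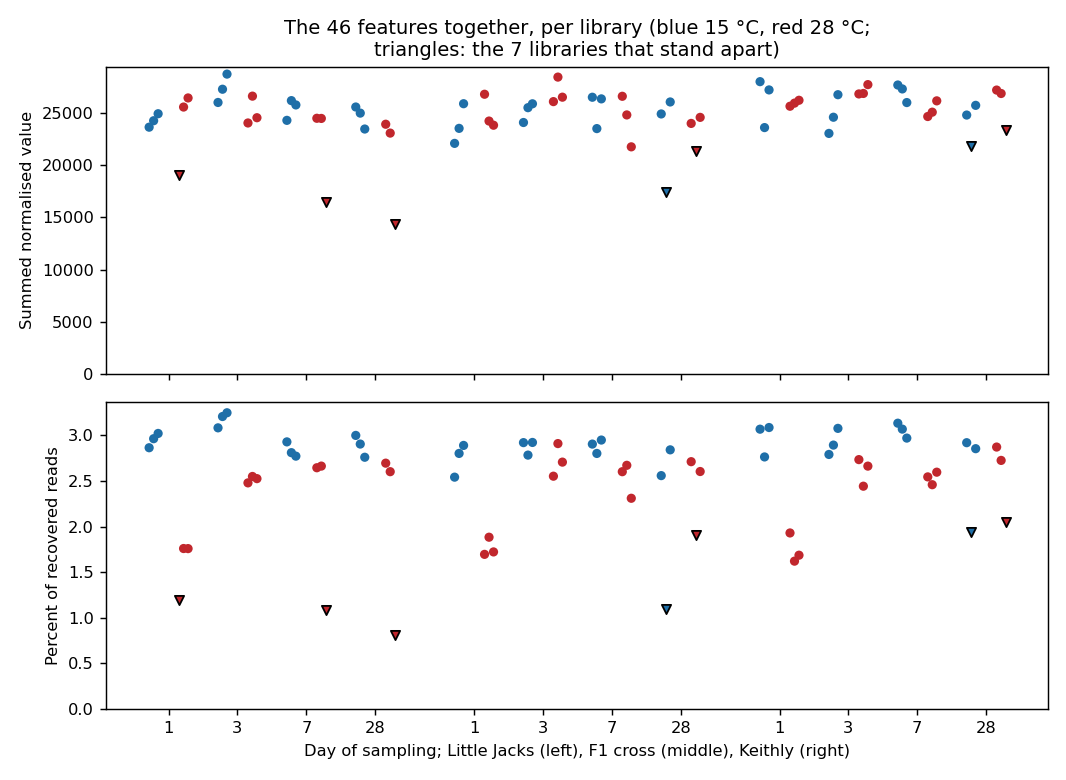
Sum of the 46 features in each of the 72 libraries, as normalised value (upper panel) and as a percent of recovered reads (lower panel), by day and strain, with 15 °C in blue and 28 °C in red. The upper panel shows no gap between temperatures outside the triangles, which mark the 7 libraries that stood apart, whereas in the lower panel the day 1 libraries at 28 °C lie below the other circles, at medians of 1.76%, 1.72% and 1.69%.

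In 6 of the 7 libraries that stood apart, from 35 to 43 of the 46 features were below both other libraries of their group. In Little Jacks at 28 °C on day 28, 43 of 46 were below both other libraries of the group in replicate 3, with a median distance of -0.87 on the log2 scale. The day 7 replicate 3 had 43 of 46 below and a median of -0.67, and the day 1 replicate 1 had 42 of 46 and -0.51. In replicate 2 of the F1 cross on day 28 the median was -0.66 at 15 °C (43 of 46 below) and -0.25 at 28 °C (35 of 46). The Keithly libraries stood less far from their groups, at -0.23 (39 of 46) at 28 °C and -0.13 (21 of 46) at 15 °C. In the other 65 libraries the medians ran from -0.22 to 0.50 with at most 34 of 46 below, a range that holds the Keithly library at 15 °C. The other 471 abundant features moved in the same way, with a median residual of -0.57 in the Little Jacks day 28 library against -0.58 for the 46. The part of RNA quality or cell make-up in these libraries was not tested.

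Within groups, the spread of the 46 features followed these libraries most in Little Jacks, less in the F1 cross and little in Keithly. The median within-group SD was 0.28 (log2) for Little Jacks, 0.21 for the F1 cross and 0.16 for Keithly, and without the 7 libraries it was 0.12, 0.16 and 0.15. The other abundant features had 0.33, 0.28 and 0.21 with all libraries, and 0.18, 0.24 and 0.20 without the 7. The rule itself favours features of low spread, so this difference was not tested. Because the rule takes the median of 3, it passes over a single low library in a group. Over the 1035 pairs of the 46 features, the median correlation of within-group residuals was 0.63 across the 72 libraries and 0.24 across the 65. The points of a pair share their libraries, their depth and their scaling.

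The smallest heat effects belonged to g14516, whose largest absolute effect over the 12 combinations was 0.18, in Little Jacks on day 3. In the 12 Little Jacks libraries at 15 °C its value had a lowest, median and highest of 246, 302 and 336, and at 28 °C of 177, 293 and 338. The F1 cross had 157, 304 and 369 at 15 °C and 259.7, 293 and 359.9 at 28 °C, and Keithly had 241, 289 and 328 at 15 °C and 263, 296 and 316 at 28 °C. The ranges overlapped in every strain, and the lowest values, 177 and 157, were those of libraries that stood apart. Next was g02147, with a largest absolute effect of 0.25 in Keithly on day 28. Its values in Little Jacks were 255, 289 and 329 at 15 °C against 140.5, 265 and 297 at 28 °C. In the F1 cross they were 176, 284 and 364 against 229, 272 and 313, and in Keithly 231, 286 and 379 against 255, 283 and 328. The largest absolute effect of g14516 rose to 0.48, past the limit, without replicate 3 of the F1 cross at 15 °C on day 28. It was 0.29 without replicate 1 of that group, 0.37 and 0.31 without replicates 2 and 3 of Little Jacks at 28 °C on day 1, and 0.34 without replicate 2 of Little Jacks at 28 °C on day 28. That of g02147 was 0.55 and 0.58 without replicates 1 and 2 of the latter group. In each of these cases the pair of libraries left in the group includes one that stood apart. With means of logs in place of medians the effects were 0.30 and 0.41, and on the column-total scale 1.03 and 0.96.

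The most abundant of the 46 was g02523. Its lowest, median and highest value in Little Jacks was 3251, 4120 and 4547 at 15 °C and 2049.5, 4153 and 4592 at 28 °C. The F1 cross had 2541, 4014 and 4782 at 15 °C and 3499, 4355 and 5002 at 28 °C, and Keithly 3589.9, 4576 and 5674 at 15 °C and 3942, 4629 and 5109 at 28 °C. Its heat effects ran from -0.12 to 0.25, and 9 of 12 were above zero. The second in level, g00007, had a mean control level of 2293 and heat effects from -0.34 to 0.40. On day 7 its effect was -0.34 in Little Jacks and 0.16 in Keithly, and on day 28 it was -0.15 and 0.37. In Little Jacks on day 7 it had 2142, 2159 and 1762 at 28 °C against 2326, 2703 and 2707 at 15 °C, and the groups did not overlap. In Keithly on day 28 it had 2741, 2855 and 2538 at 28 °C against 2119, 1879.9 and 2154 at 15 °C, again without overlap.

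At the edge of the rule, just inside were g18303, with an effect of -0.398 in Keithly on day 7, and g00366, with 0.399 in Little Jacks on day 3. The g18303 values there were 293, 298 and 272 at 28 °C against 386, 423 and 361 at 15 °C. Those of g00366 were 314, 314 and 341 at 28 °C against 259, 238 and 229 at 15 °C. In both cases the 3 libraries at 28 °C were all on the same side of the 3 at 15 °C. Just outside were g13649, with 0.401 in Keithly on day 1, and g13630, with -0.403 in Little Jacks on day 28. Each of these was outside in that combination alone. A small distance thus separates features on either side of the limit, and a feature inside it can still have groups that do not overlap.

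The rule compares temperatures within a day and makes no comparison between days, although the same 15 °C libraries enter it. Because it limits the heat effect on each day, it limits how far a day change at 15 °C can part from that at 28 °C. It also favours features of low spread. The counts of the 46 over days are thus not independent of the choice. Counts for the other 471 features, which the rule did not choose, are given beside those of the 46 as a description. Within a strain, day 28 was set against day 1 at 15 °C with limma on log2(value + 0.5), adjusted over all features of the strain's table. A change was called at a Benjamini-Hochberg adjusted p under 0.05. In Little Jacks 0 of the 46 features were called, where 0.822% of all features were. The F1 cross had 0 of 46 against 0.0167% of all features, and Keithly 0 of 46 against 0.827%. An unadjusted p under 0.05 was met by 0, 4 and 12 of the 46. Of all features it was met by 1953 of 24343, 1988 of 24011 and 4112 of 24174. The quasi-likelihood test of edgeR also called 0 of the 46 in each strain, where 0.900%, 0.0125% and 0.678% of all features were called. Its unadjusted counts were 0, 3 and 11 of the 46, against 2207, 3586 and 3081 of all features. Fitted changes ran from -0.39 to 0.25 in Little Jacks, from -0.65 to 0.38 in the F1 cross and from -0.53 to 0.31 in Keithly. The 95% interval lay within 0.4 of zero for 2, 4 and 12 of the 46 features, with the spread taken from all 24 libraries of a strain. In Little Jacks the libraries that stood apart are all at 28 °C, outside this contrast but in the fit. Without the 7 libraries the interval lay within 0.4 of zero for 30 of the 46 there, and with only the libraries of the contrast for 26, at the same fitted changes. Both fits called 0 of the 46, where they called 2.68% and 3.78% of all features. At an unadjusted p under 0.05 there were 4 and 3 of the 46, against 3171 and 4278 of 24343 features. In the F1 cross and Keithly a library that stood apart is in the contrast. Without the 7, changes ran from -0.48 to 0.63 in the F1 cross, with a median of 0.13 in place of -0.08. Those in Keithly ran from -0.59 to 0.33. Without the libraries under 1 M reads, the lowest change in Keithly was -0.42. An unadjusted p under 0.05 was then met there by 5 of the 46 and 2138 of 24174 features. These fits called 0 of the 46, and 0.00416%, 1.72% and 0.476% of all features. Without replicate 3 of Keithly at 15 °C on day 28, 6 of the 46 were called lower in Keithly and 0 higher. In that fit 1801 of 24174 features and 48 of the other 471 were called lower, and 10.7% of all features in either direction. The pair of Keithly libraries left on day 28 at 15 °C holds one that stood apart and the one of fewest reads (0.276 M).

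Averaged over the strains, with 3 libraries of each strain on each day, 5 of the 46 features were lower on day 28 than on day 1 and 0 were higher. This is 10.9% of the 46, where 7.05% of all features were called in either direction and 4.5% were called lower. Of the other 471 abundant features, 75 were called (15.9%), 46 of them lower and 29 higher. The changes of the 46 ran from -0.45 to 0.24, with a median of -0.07 against -0.06 for all features. Without replicate 1 of Keithly at 15 °C on day 28 these medians were -0.05 and 0.01. With all libraries, the 95% interval lay within 0.4 of zero for 32 of the 46. The count of 5 fell to 1 without replicate 2 of the F1 cross on day 28, a library that stood apart. It fell to 2 without replicate 1 of Little Jacks on day 28, replicate 3 of the F1 cross on day 1 or replicate 1 of Keithly on day 28. It was 3 without replicate 2 of Little Jacks on day 28 or replicate 2 of the F1 cross on day 1. Each of these libraries is at 15 °C. The fits without them called 5.00% to 5.78% of all features. Without all 7 libraries that stood apart, 5 features were lower and 2 higher, where 10.2% of all features were called. The edgeR test on the 15 °C libraries also called 5 of the 46 lower and 0 higher, but called 14.5% of all features. It called 1215 of the 23234 features lower and 2151 higher. Of the other 471 it called 143, 66 lower and 77 higher. The share called among the 46 was thus above that of all features by limma and below it by edgeR.

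**Figure D3:**
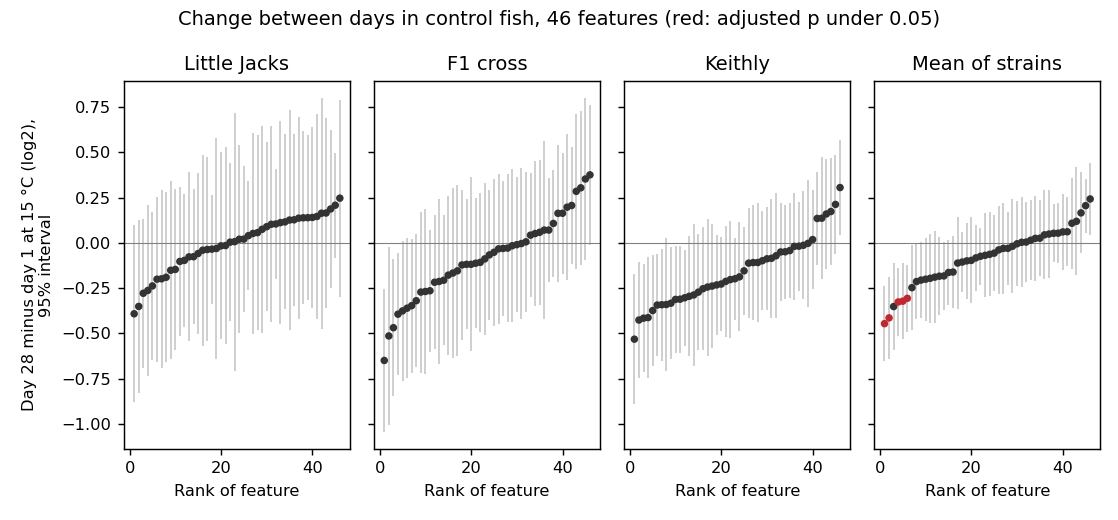
Change from day 1 to day 28 at 15 °C (vertical axis, log2) with its 95% interval for each of the 46 features, ordered by size within each panel, in the 3 strains and in their mean. The intervals narrow in the mean of the strains, where the 5 called features, in red, lie at the low end from -0.45 to -0.31.

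Of the 5, g00196 fell most, by 0.45 on the log2 scale (SE 0.10, limma adjusted p = 0.00314). In Little Jacks at 15 °C it had 1539.9, 1391 and 1395 on day 1 and 1094, 1184 and 1336 on day 28, without overlap. The F1 cross had 1169, 1395 and 1482 on day 1 and 890.3, 672 and 1047 on day 28, again without overlap. In Keithly the values were 1639, 1580.5 and 1179 on day 1 and 998, 1056.5 and 1194 on day 28, and the groups overlapped. Its medians over days 1, 3, 7 and 28 stepped down at each day in the F1 cross, from 1395 to 1214, 1052 and 890.3, and in Keithly, from 1580.5 to 1413, 1278 and 1056.5. In Little Jacks they were 1395, 1432, 1369 and 1184. At 28 °C the day 28 medians were also the lowest of the 4 days, at 1059 for Little Jacks, 1127 for the F1 cross and 991 for Keithly. Its 12 heat effects ran from -0.32 to 0.34.

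The next, g15739, fell by 0.41 (SE 0.11, limma adjusted p = 0.0145). It had 257, 267 and 271 in Little Jacks on day 1 against 184, 215 and 208 on day 28, without overlap. In the F1 cross 196, 240.1 and 257 stood against 212, 134 and 219, and in Keithly 214, 233 and 304 against 123, 186 and 217, both with overlap. The lowest of these values came from the F1 cross library that stood apart and from the Keithly library of fewest reads. The other 3 changed by -0.33, -0.32 and -0.31, with limma adjusted p-values of 0.0229, 0.0474 and 0.0300. Of 27 alternatives, 5, 16 and 11 lost these calls, with limma or edgeR adjusted p-values up to 0.108, 0.140 and 0.114, and 4 lost that of g15739 (up to 0.0830). A difference in this change between Little Jacks and Keithly was called for 0 of the 46 and for 0% of all features by limma, with 2 of 46 and 1338 features at an unadjusted p under 0.05. By edgeR it was likewise called for 0 of the 46 and for 0% of all features, with 0 of 46 and 949 features unadjusted. In the limma fit these differences, Little Jacks minus Keithly, ran from -0.20 to 0.53 among the 46. Their median was 0.14, as it was for all features, and the standard errors ran from 0.18 to 0.36. Without replicate 1 of Keithly at 15 °C on day 28, the library of fewest reads, the medians parted. The 46 then had 0.13 and all features -0.02, and the other 471 abundant features had 0.14. With all libraries, the interval of the difference lay within 0.4 of zero for 0 of the 46. The absence of calls thus does not show that the strains changed alike.

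**Figure D4:**
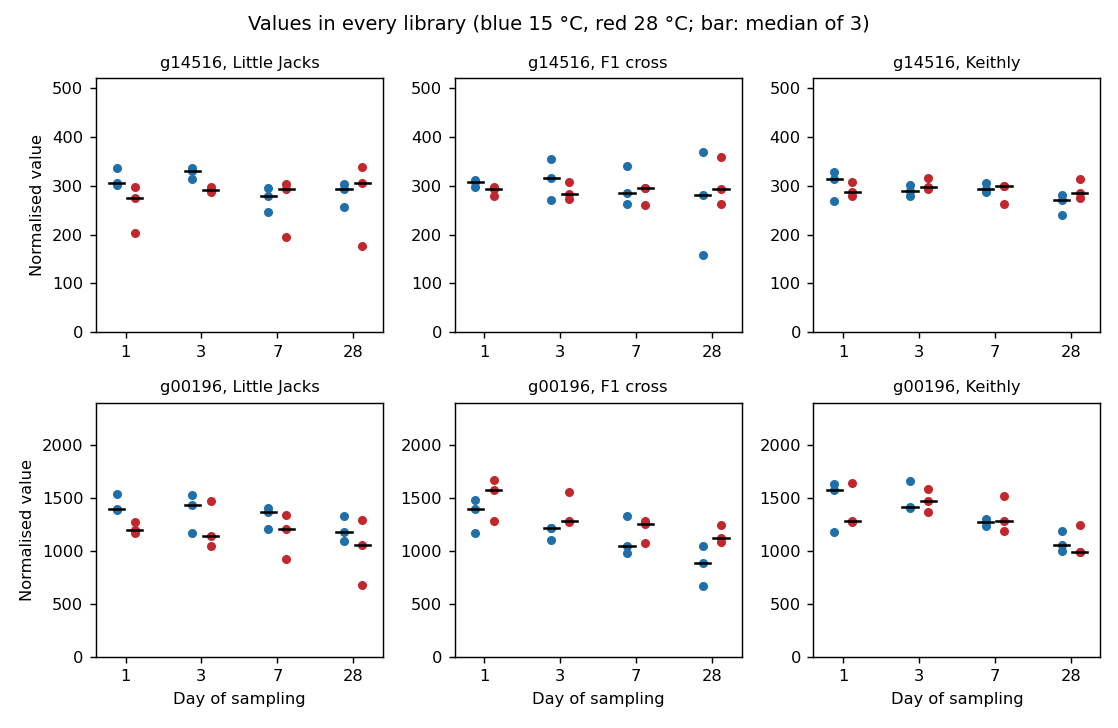
Normalised value (vertical axis, from 0) of g14516 and g00196 in every library by day of sampling, for the 3 strains, with 15 °C in blue, 28 °C in red and bars at the median of 3. The bars of g14516 stay between 271 and 329.9, whereas those of g00196 are lowest on day 28 in each strain at both temperatures. Single low libraries of g14516 lie at 204, 195 and 177 in Little Jacks at 28 °C and at 157 in the F1 cross at 15 °C.

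To compare the strains in the level of the 46 features, the recovered reads of the 3 tables were put on a common TMM scale, and the 4 days at 15 °C were averaged. Little Jacks and Keithly differed in 0 of the 46 features by limma, where 0.254% of all features were called. By edgeR they differed in 0 of the 46, where 0.387% of all features were called. At an unadjusted p under 0.05 there were 3 by limma and 2 by edgeR, against 2127 and 2416 of the 23234 shared features. Fitted differences, Little Jacks minus Keithly, ran from -0.18 to 0.19 with a median of 0.04, and the standard errors from 0.065 to 0.13. For all 46 features the 95% interval of the difference lay within 0.4 of zero. Of the other 471 abundant features, which met the same level minimum in each strain, limma called 2. That minimum uses the same 15 °C values, so these counts are not independent of the choice. On the column-total scale limma also called 0 of 46, where 0.0861% of all features were called. The interval lay within 0.4 of zero there for 29 of the 46.

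The F1 cross was set against the mean of its parental strains in the same fit. A single feature of the 46 (2.17%) was called, where 11.5% of all features and 94 of the other 471 abundant features (20.0%) were. The rule limits heat effects in each strain, so it limits how far a strain difference at 15 °C can part from that at 28 °C. At 28 °C limma called 0.185% of all features and 2 of the other 471 in this comparison. The counts of the 46 in the strain comparisons are thus not independent of the choice. The differences of the 46 ran from -0.24 to 0.13 with a median of -0.02, and all 46 intervals lay within 0.4 of zero. The called feature was again g00196, at -0.24 (SE 0.076, limma adjusted p = 0.0291). Its lowest, median and highest values at 15 °C were 672, 1135 and 1482 in the F1 cross. Little Jacks had 1094, 1380.1 and 1539.9, and Keithly had 998, 1289 and 1661, so the ranges overlapped. Against Little Jacks alone the F1 cross was lower in 1 of 46 features, the same g00196 at -0.27 (limma adjusted p = 0.0427), where 9.77% of all features were called. Against Keithly alone limma called 0 of 46, where 7.2% of all features were called. At an unadjusted p under 0.05 there were 3 of the 46 and 4533 of 23234 features. These comparisons share the F1 cross libraries. The call on g00196 was lost without replicate 1 of the F1 cross at 15 °C on day 1, 3 or 7, without replicate 3 on day 7 and without replicate 2 on day 28, with adjusted p-values up to 0.0722. On the column-total scale limma called 0 of the 46 against the parental mean, where 10.7% of all features were called. The differences there ran from -0.35 to 0.02, with a median of -0.13 for the 46 and for all features. On that scale 22 of the 46 intervals lay within 0.4 of zero.

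**Figure D5:**
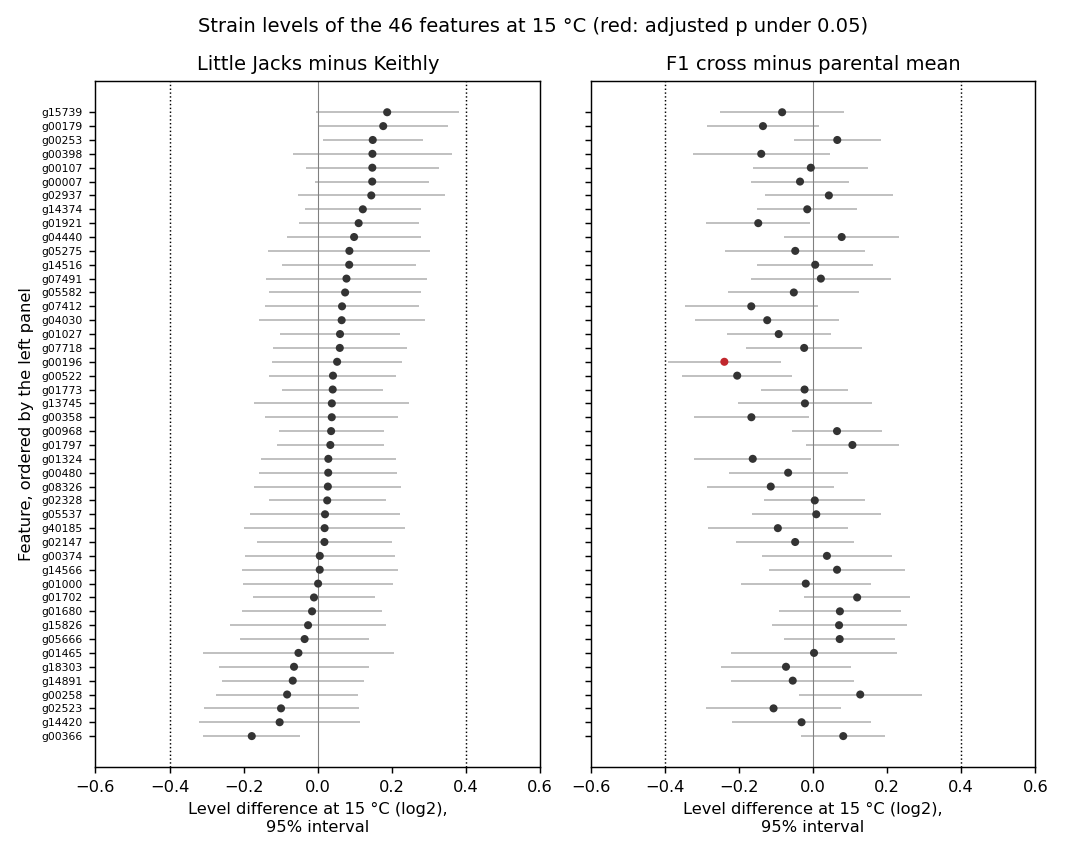
Level difference at 15 °C (horizontal axis, log2) with its 95% interval for each of the 46 features, Little Jacks minus Keithly on the left and the F1 cross minus the parental mean on the right, in the order of the left panel. All intervals lie between the dotted lines at 0.4 on either side of zero, and g00196, in red, is the single called feature, at -0.24.

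At 28 °C the strain comparison depended on the libraries that stood apart, 3 of which are Little Jacks libraries at that temperature. With all libraries, Little Jacks was lower than Keithly in 1 of 46 features, g01324 at -0.34 (limma adjusted p = 0.0270), where 2.72% of all features were called. At an unadjusted p under 0.05 there were 20 of the 46 and 3907 of 23234 features. The median over the 46 was -0.17, and over the other 471 abundant features it was -0.15. Of these 471, limma called 48 lower and 11 higher in Little Jacks. Without the 7 libraries the median was -0.03 for the 46 and -0.05 for the other 471. The differences of the 46 ran from -0.21 to 0.26, and 1 feature was called, in the opposite direction, where 1.95% of all features were called. That feature was g14420, higher in Little Jacks. At an unadjusted p under 0.05 there were 6 of 46 and 2934 of 23234 features. Both g01324 and g14420 were named after their values were seen. For the F1 cross against the parental mean at 28 °C, limma called 0 of 46 with all libraries, where it called 0.185% of all features. In that fit 1 of the 46 and 1672 of 23234 features were at an unadjusted p under 0.05. Without the 7 libraries limma called 0 of 46 and 0.555% of all features, with 0 of 46 and 2140 features at an unadjusted p under 0.05.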

How the data were processed

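The submitters' processing notes name CASAVA 1.8, Bowtie and edgeR, and the transcriptome build used is not stated there. The authors' deposited tables, 1 per strain, hold a normalised signal for each feature. The labels call it CPM, although the columns summed to between 0.819 and 1.77 M (M, mega). The deposited library table gives quality reads (22.4 to 72.7 M) and the percent of them matched to the transcriptome (0.730% to 42.5%). Columns were tied to groups by name, and S numbers served only as replicate names.

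Reads were recovered by dividing by the smallest step of a column, and 100% came out whole within 0.01. The features and lists were chosen with earlier results of these data known, and 9 ribosomal RNA features were left out of the choice. These 9 stayed in the column totals, in the recovered reads and in the tests. Changes over days were tested with limma 3.58.1 (R 4.3.3), with a trended prior and no filter, on log2(value + 0.5), over 24343, 24011 and 24174 features in the Little Jacks, F1 cross and Keithly tables and over the 23234 shared features in the average of strains. Strain levels used recovered reads with TMM scaling and a prior count of 0.5. Tests were two-sided with Benjamini-Hochberg adjustment, and edgeR 4.0.16 on the recovered counts was an alternative. The limma fits of day changes and strain levels were also run on simulated reads with known changes. Those runs scaled day changes to column totals and covered neither the choice of features nor edgeR.

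The features named by rule are the 2 of highest level, the 2 with the smallest largest heat effect, those of largest called change, and the 2 just inside and 2 just outside the limit. Names added after values were seen are g15739, g01324, g14420, g01797, g04440 and g05666. Gene lists and cell type markers could not be used, because 0 of 23234 identifiers matched a gene name. Alternatives were other limits, pseudocounts, filters, scalings, tests and sets of libraries.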

Additional observations from a re-analysis of the deposited data

How the results depend on the processing

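The number of features meeting the rule depended on its limits and on the libraries. It was 8 with a heat limit of 0.3, 103 with 0.5, 107 with a level minimum of 100, 11 with 500 and 4 on the column-total scale. It was 46 with TMM scaling, 41 without the 7 libraries that stood apart, 34 of them among the 46, and 36 with means of logs in place of medians, 21 of them among the 46. Leaving out each library in turn gave 18 to 52. The count was 18 without replicate 1, and 20 without replicate 2, of Little Jacks at 28 °C on day 28, where the remaining pair includes a library that stood apart, and 29 without replicate 2 of that strain at 28 °C on day 7. Only g01797, g04440 and g05666 met the rule in all 72 of these runs, and 43 of the 46 missed it at least once.

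For day 28 against day 1 at 15 °C, leaving out each library gave 0 called features in Little Jacks and the F1 cross and 0 to 6 in Keithly. These fits called 0.349% to 0.604% of all features in Little Jacks and 0.00416% to 0.0250% in the F1 cross. In Keithly they called 0.451% to 10.7%. The count averaged over strains was 3 on the column-total scale, where 8.99% of all features were called. It was 2 without the 3 libraries under 1 M reads (6.75% of all features) and 1 with only the libraries of the contrast (4.66%). Leaving out each library gave 1 to 6, where 5.00% to 10.9% of all features were called. For g00196 the adjusted p of this change ran from 0.00137 to 0.0345 over 27 alternatives. Little Jacks minus Keithly in level gave 0 called features under the alternatives at 15 °C. Apart from the fits that left out a single library, these alternatives called 0.0861% to 0.921% of all features. At 28 °C it gave 1 lower with all libraries (2.72% of all features called). Without the 7 it gave 1 higher, a different feature (1.95% of all features called).

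The F1 cross against the parental mean gave 0 called features at 28 °C, where 0.185% of all features were called, and 0 without the 7 libraries (0.555%). It gave 0 on the column-total scale, where 10.7% of all features were called. The count was 2 with median-of-ratios scaling, with the authors' values, without the 3 shallow libraries and by edgeR. It was 3 without the 7 libraries (11.2% to 15.4% of all features over these fits with 2 or 3). Leaving out each library gave a count of 0 to 2. It was 0 without replicate 1 on day 1 or 7, replicate 3 on day 7 or replicate 2 on day 28 of the F1 cross, and 2 without its replicate 1 or 3 on day 28 or replicate 1 of Keithly on day 28. The difference for g00196 reversed at 28 °C, to 0.099 (limma adjusted p = 0.850), and to 0.054 (limma adjusted p = 0.887) without the 7 libraries. The cause of these changes was not tested. No paired analysis was possible because the columns carry no replicate number that the labels share between groups. The libraries under 1 M reads limit the precision of their groups, and pooling hides the spread between fish. The alternatives at 28 °C without the 7 libraries were chosen after seeing the data.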
